A study of Mus musculus with 35 samples.

Results

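Lungs of mice that had breathed 20 ppm styrene were compared with lungs of mice that had breathed clean air. The comparison used 10 of the 35 arrays of the series, 5 at each concentration. It covered 17097 genes, each read by its brightest probe set among those assigned to that gene alone. All animals were male adult wild-type C57Bl/6 mice supplied by Taconic, and they differed by label only in the inhaled concentration. The exposure was a single session of 6 h in individual cages, with 0, 1, 5, 10, 20, 40 or 120 ppm styrene, and the whole lung was taken on the following morning. Each array is labelled as a biological replicate of its group. The labels do not say whether an extract came from 1 mouse or from several.

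Styrene is a volatile industrial solvent. In the mouse lung it is oxidised by cytochrome P450 enzymes, above all CYP2F2 of the club cells, the secretory cells that line the bronchioles, and by CYP2E1. The products include an epoxide that epoxide hydrolase and glutathione transferases remove. Interferon-stimulated genes are switched on when type I or type III interferon binds its receptor and the transcription factors it activates reach their promoters. Their products block viral replication and sense foreign nucleic acid.

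Exposure to 20 ppm changed the level of many transcripts in both directions. Higher signals were called for 1102 genes (6.45% of those tested) and lower signals for 1153 genes (6.74%), at an adjusted p under 0.05 in limma. All signals and differences are on the log2 scale of the authors' normalised table, and errors of differences are standard errors from the fit to all 35 arrays. Over 2-fold, 192 genes rose and 55 fell, and the median difference over all genes was -0.02. The genes with the largest rises included interferon-stimulated genes, the acute-phase gene Saa3, repair genes of the epithelium, the goblet cell gene Slc26a4 and the matrix gene Timp1. Those with the largest falls included Cyp1a1 and Pon1, which encode a cytochrome P450 and a paraoxonase.

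**Figure D1:**
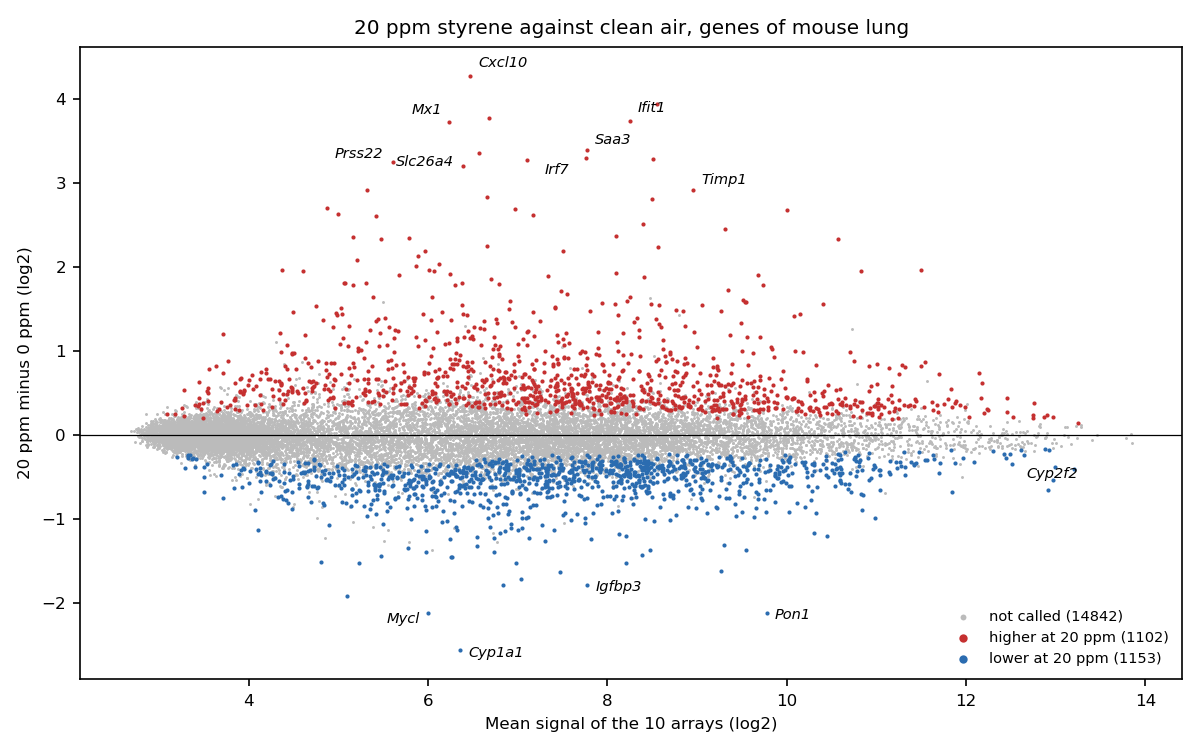
Each point is 1 gene: the horizontal axis is the mean log2 signal of the 10 arrays, the vertical axis the log2 difference of 20 ppm minus 0 ppm. Red points are the 1102 genes called higher and blue points the 1153 called lower at an adjusted p under 0.05 in limma; Cxcl10 lies highest, at 4.28, and Cyp1a1 lowest among the labelled genes, at -2.56.

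In 3 of the 10 arrays, the signals of hepatocyte genes stood out. The mean signal of 8 hepatocyte markers was 3.94, 3.74, 8.52, 7.54 and 4.15 at 0 ppm and 4.15, 7.98, 3.70, 3.68 and 3.75 at 20 ppm, in the order of the replicate numbers. The raised values are those of 0 ppm replicates 3 and 4 and 20 ppm replicate 2, and albumin (Alb) was at 11.19, 10.47 and 10.72 there. Without these 3 arrays 653 genes were called higher and 635 lower, and 1269 of these 1288 calls were among the calls made with them, in the same direction. Genes named below whose calls were lost without these 3 arrays are identified beside their values. The levels of the built-in controls overlapped between the groups, except for the spiked poly-A transcripts, whose mean signal was 6.56 ± 0.12 at 0 ppm and 6.30 ± 0.08 at 20 ppm (SD, n = 5; two-sided exact permutation p = 0.00794, the smallest that 5 against 5 allows, and 0.0714 after adjustment over 9 such summaries).

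Antiviral effector genes rose nearly as a block. Of 24 measured members, 23 rose and none fell, and the median difference of the list was 2.10. The differences ranged from 0.33 for Ifi27l2a, which did not pass the test, to 3.78 for Oasl1. For 19 members every array of their brighter group was above background, whatever the other group showed, and 18 of these rose. A rise at 20 ppm itself helps a gene to pass that filter, so this count is no separate support. A gene counts as above background on an array when it exceeds the highest of 23 nonspecific-hybridisation controls there, which averaged 6.17 over the arrays. That limit ran from 5.90 to 6.34 at 0 ppm and from 5.69 to 6.43 at 20 ppm. Where a gene lay under that limit on every array of the dimmer group, its fold is a lower bound, set against the limit itself, and its fitted difference is printed with its test but does not measure the size. Where only some of those arrays lay under it, the size is also uncertain. This holds for Saa3, Nlrc5, Atf3 and Psat1 in clean air and for Ces1f and Acaa1b at 20 ppm, among others.

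Ifit1, whose product binds viral RNA lacking the cellular cap structure, had signals of 5.77, 5.89, 6.74, 6.46 and 7.02 at 0 ppm and 9.86, 10.65, 9.92, 10.42 and 9.75 at 20 ppm. The groups were far apart, and the difference was 3.74 ± 0.31 (adjusted p = 7.62e-11). Mx1, a GTPase that blocks influenza viruses, had signals of 4.15, 4.73, 4.34, 4.13 and 4.52 at 0 ppm and 7.89, 8.81, 7.70, 8.71 and 7.39 at 20 ppm. It was not above background on any clean-air array, was at least 4.06-fold higher at 20 ppm, and differed by 3.73 ± 0.26 (adjusted p = 3.09e-12). For Oasl1, of the oligoadenylate synthetase family, signals were 4.88, 4.45, 4.68, 4.84 and 5.13 in clean air and 8.67, 9.12, 8.26, 8.81 and 8.01 after styrene. This gene was at least 5.64-fold higher, with a difference of 3.78 ± 0.23 (adjusted p = 6.88e-14). Rsad2 encodes viperin, an enzyme that makes a chain-terminating nucleotide, and was above background on all 10 arrays. Its signals were 6.65, 6.22, 6.67, 7.13 and 7.65 at 0 ppm and 9.91, 10.73, 9.92, 10.60 and 9.60 at 20 ppm, a 9.78-fold rise (3.29 ± 0.27 (adjusted p = 7.53e-11)). Among these 4 genes, replicates 2 and 4 were the highest of the 20 ppm group in each. Apol9a, Ifit2 and Oasl2 rose by 3.36, 3.28 and 2.81, and in none of them did the groups overlap. Apol9a, under the limit in clean air, was at least 4.53-fold higher.

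A smaller part of the transcription factors and sensors of the pathway rose. Of 15 measured members 8 rose and 1 fell, with a median of 0.48. A single fall in a list of 15 to 17 members is near the 6.74% over all genes. This also holds for the IL-6, type 2, NF-kB and integrated stress response lists below. Here the gene that fell was Mavs, by 0.41. Its fall was not called when any 1 of 0 ppm replicates 1, 2 or 3 or of 20 ppm replicates 2, 3, 4 or 5 was left out. Nor was it called without the 3 arrays with hepatocyte signals or with each array centred on its median. With array weights or without 20 ppm replicate 1, 2 members fell. Irf7, the factor that amplifies the interferon response, had signals of 5.82, 5.81, 6.12, 6.32 and 6.50 at 0 ppm and 9.30, 9.68, 9.20, 9.65 and 9.24 at 20 ppm. It rose by 3.30 ± 0.18 (adjusted p = 4.34e-15), with 3 of the 5 clean-air arrays not above background. Stat2, a subunit of the complex that reads interferon signals, rose from 6.34, 6.65, 6.71, 6.32 and 6.48 to 7.78, 7.98, 7.43, 8.0 and 7.52, by 1.24 ± 0.18 (adjusted p = 8.41e-06). The cytosolic RNA sensor Ifih1 rose by 1.65 ± 0.28 and its relative Dhx58 by 2.69 ± 0.18, at least 1.74-fold and 4.71-fold. Irf1 and Irf3 had differences of 0.00 and -0.05, and neither passed the test.

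No interferon or interferon receptor gene was called by limma, while array weights called 1 of the 8 measured higher and 1 lower. Ifnb1 had signals of 3.31, 3.16, 3.13, 3.00 and 3.20 in clean air and 3.24, 2.96, 3.25, 3.30 and 3.23 at 20 ppm, all far under the background limit. The 8 measured interferons and receptor chains had differences from -0.18 for Ifngr1 to 0.17 for Ifngr2. The absence of a call for a gene below background sets no limit on its change, and the tissue was sampled at a single time.

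Interferon-inducible GTPases, which attack the vacuoles of intracellular parasites, formed a smaller block. Of 10 members 7 rose and none fell, with a median of 1.03. Iigp1 had signals of 5.96, 6.23, 7.14, 7.24 and 7.97 at 0 ppm and 8.86, 9.83, 9.19, 9.68 and 8.86 at 20 ppm and rose by 2.38 ± 0.38 (adjusted p = 2.75e-05). Irgm1, Tgtp1 and Igtp rose by 1.56 ± 0.24, 1.56 ± 0.23 and 1.20 ± 0.23. For Iigp1 the clean-air arrays were widely spread, and still every 20 ppm array lay above them.

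Promoter sequences are shown for 3 of the interferon-stimulated genes, the effectors Ifit1 and Rsad2 and the chemokine gene Cxcl10, because the interferon-stimulated response element in them is the site that interferon-activated transcription factors bind. They were picked for holding the motif, among called genes with 1 promoter entry and a match. Of such genes, Ifit1 and then Rsad2 have the largest rises in the effector list, and Cxcl10 the largest among CXCR3 ligands and their receptor. Genes of 1 chromosome were set aside. That these windows hold matches is therefore no result. The windows are RefSeq sequence of GRCm38.p6, from 250 bases before to 50 bases after the gene start, 300 bases each. Capitals mark the letters GAAANNGAA, the core of that element, on either strand, where N is any base. Ifit1 (chr19:34640639-34640938, plus strand) has 3 matches that start 109, 103 and 84 bases before the gene start, of which the former pair overlap, Rsad2 (chr12:26456403-26456702, minus strand) has 1 at 119 bases, and Cxcl10 (chr5:92348840-92349139, minus strand) has 1 at 213 bases.
Ifit1: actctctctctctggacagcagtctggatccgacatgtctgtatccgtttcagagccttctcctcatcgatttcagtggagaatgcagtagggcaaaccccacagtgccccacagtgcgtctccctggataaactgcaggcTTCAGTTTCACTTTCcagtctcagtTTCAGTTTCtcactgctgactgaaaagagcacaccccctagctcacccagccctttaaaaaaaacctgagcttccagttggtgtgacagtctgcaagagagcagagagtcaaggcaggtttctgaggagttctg
Rsad2: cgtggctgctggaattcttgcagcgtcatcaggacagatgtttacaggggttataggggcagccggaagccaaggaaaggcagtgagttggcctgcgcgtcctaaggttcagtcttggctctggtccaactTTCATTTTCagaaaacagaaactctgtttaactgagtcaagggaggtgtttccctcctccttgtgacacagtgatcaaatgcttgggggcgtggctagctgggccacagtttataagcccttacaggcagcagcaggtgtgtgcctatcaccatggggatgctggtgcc
Cxcl10: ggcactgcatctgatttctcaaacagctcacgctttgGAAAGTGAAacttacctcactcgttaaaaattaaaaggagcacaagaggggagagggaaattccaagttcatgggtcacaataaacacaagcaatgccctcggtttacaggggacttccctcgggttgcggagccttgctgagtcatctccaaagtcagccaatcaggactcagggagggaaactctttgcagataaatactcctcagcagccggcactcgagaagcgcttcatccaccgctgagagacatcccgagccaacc
A RefSeq promoter entry was found for 16 of the 24 effector genes, and 9 of these 16 windows held the motif (56.2%). For the GTPases it was 7 of 8 windows (87.5%), and for all tested genes with an entry 1182 of 13605 (8.7%). A match is a description of the letters, and binding was not measured.

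**Figure D2:**
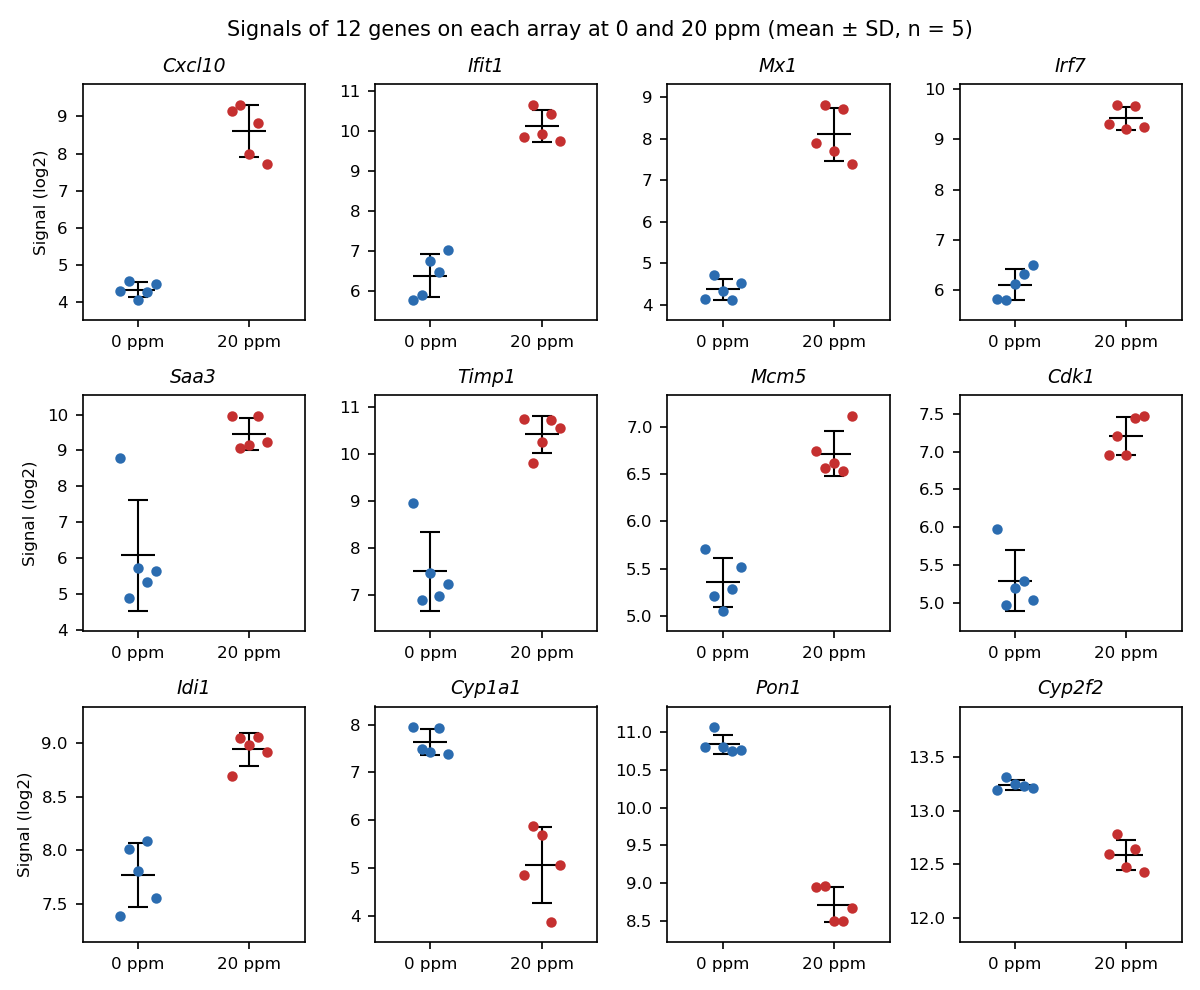
Log2 signals of 12 genes on each of the 5 arrays at 0 ppm (blue) and 20 ppm (red), with the mean and SD of each group as bars; the vertical axes differ between panels. The groups do not overlap in any panel, and the single high clean-air point of Saa3 and of Timp1 is that of replicate 1, at 8.79 and 8.95.

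Cxcl10, a chemokine that draws T cells and NK cells bearing CXCR3, was higher in every exposed lung than in any control. Its signals were 4.28, 4.56, 4.05, 4.27 and 4.47 at 0 ppm and 9.15, 9.31, 8.0, 8.83 and 7.72 at 20 ppm. The gene was not above background in any clean-air lung and was at least 5.76-fold higher at 20 ppm (4.28 ± 0.39 (adjusted p = 6.90e-10)). Chemokines for neutrophils and monocytes rose in 5 of 12 cases and fell in none, with a median of 0.81, and 1 rose when genes under the background limit were left out. Ccl2, the main attractant of monocytes, had signals of 4.27, 4.16, 4.31, 4.14 and 3.92 at 0 ppm and 6.92, 5.99, 5.43, 5.90 and 5.59 at 20 ppm and rose by 1.80 ± 0.28 (adjusted p = 1.55e-05). Only 2 of its 20 ppm arrays were above background, and no fold is given. Ccl12, Ccl7, Cxcl1 and Ccl8 rose by 2.60, 1.96, 1.79 and 1.60 as fitted, and Ccl12 was at least 1.56-fold higher. Cxcl1, a neutrophil attractant, ranged from 5.18 to 7.84 at 20 ppm, with the highest signal on replicate 1, and replicate 1 was also the highest 20 ppm array for Ccl2, Ccl7 and Ccl8.

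No marker of the cells that these chemokines attract was called higher. This held for 7 neutrophil markers, 8 T cell markers, 7 NK cell markers and 8 markers of monocytes and interstitial macrophages. Of these, in the same order, 2, 1, 2 and 4 were above background on all 5 arrays of their brighter group. For the others the absence of a call sets no limit on a change. The neutrophil granule genes S100a8 and S100a9 had differences of -0.73 ± 0.46 and -0.76 ± 0.50, with adjusted p of 0.356 and 0.397. The mean signal of the neutrophil list was 6.43, 5.33, 5.88, 6.14 and 6.62 in clean air and 5.60, 5.85, 5.93, 5.54 and 5.39 at 20 ppm, so the groups overlapped. In whole-lung RNA, fewer cells of a type and less RNA per cell cannot be told apart.

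The calls in the 2 lists of antigen presentation went in opposite directions. In the class I list, which includes the immunoproteasome, 5 of 11 members rose and none fell, with a median of 0.28. These were Nlrc5 and the proteasome genes Psmb8, Psmb10, Psme1 and Psme2, and no MHC class I chain was called. B2m, Tap1 and Tap2 of the class I pathway were not measured. Nlrc5, the activator of class I genes, had signals of 5.39, 5.73, 6.25, 5.32 and 6.42 at 0 ppm and 7.03, 7.28, 7.10, 7.10 and 6.79 at 20 ppm and rose by 1.24 ± 0.26 (adjusted p = 0.00112). The count of 5 was 3 without 0 ppm replicate 4 and 2 without the 3 arrays with hepatocyte signals, where Psmb10, Psme1 and Psme2 lost their calls. In the class II list, whose products present peptides to helper T cells, 5 of 9 members fell and none rose, with a median of -0.34. H2-Eb1, a class II chain, had signals of 11.05, 10.76, 11.15, 10.85 and 11.14 in clean air and 10.56, 10.50, 10.28, 10.22 and 10.45 at 20 ppm and fell by 0.59 (SE 0.11, adjusted p = 2.11e-04). H2-DMa, which loads peptides, differed by -0.56 ± 0.13 (adjusted p = 0.00273), again without overlap. The class II count was 3 without dim genes, 0 ppm replicate 1, 0 ppm replicate 3 or 20 ppm replicate 2, and 2 without 0 ppm replicate 5, 20 ppm replicate 3, 20 ppm replicate 4 or the 3 arrays with hepatocyte signals. The opposite directions of the lists were not tested against each other.

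Acute-phase genes rose. Of 16 genes of the IL-6 family and the acute phase, 9 rose and 1 fell, with a median of 0.60, and 5 rose when genes under the background limit were left out. Saa3, a serum amyloid gene made by macrophages and epithelium, had signals of 8.79, 4.90, 5.73, 5.32 and 5.65 at 0 ppm and 9.95, 9.06, 9.14, 9.96 and 9.24 at 20 ppm. Clean-air replicate 1 stood far above the rest of its group, yet below every 20 ppm array. The rest of the clean-air group lay under the background limit. Saa3 rose by 3.39 ± 0.42 as fitted (adjusted p = 4.20e-07). Lcn2, which withholds iron from bacteria, was even within each group, at 9.60, 9.92, 9.98, 9.76 and 10.00 and then 11.84, 11.71, 11.80, 11.89 and 11.76. It rose 3.86-fold (1.95 ± 0.14 (adjusted p = 7.84e-12)). Il6 itself lay under the background limit in every clean-air lung, at 3.50, 3.46, 3.59, 3.41 and 3.68, and reached 6.73, 5.80, 5.82, 6.75 and 6.05 at 20 ppm. It was at least 1.11-fold higher, and the fitted difference was 2.71 ± 0.35 (adjusted p = 8.20e-07). Socs3, the feedback inhibitor of IL-6 signals, rose by 1.57 ± 0.18 and Saa1 by 1.95 ± 0.26. Saa1 lay under the limit on every clean-air array and on 4 of the 5 at 20 ppm. The fall was that of the receptor gene Il6ra, by 0.83, and 2 members fell without the 120 ppm arrays or with array weights.

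Genes of type 2 inflammation, the kind seen in allergy and worm infection, gave a mixed picture. Of 17 members 5 rose and 1 fell, and the list median was 0.02. Il33, an alarm cytokine stored in the nuclei of barrier cells, had signals of 8.33, 8.51, 8.88, 8.80 and 9.01 at 0 ppm and 10.35, 10.48, 10.22, 10.33 and 10.20 at 20 ppm and rose by 1.61 ± 0.19 (adjusted p = 2.37e-07). Retnla, a secreted protein of epithelium and alternatively activated macrophages, rose from 10.06, 10.74, 10.63, 10.68 and 10.46 to 12.45, 12.55, 12.19, 12.60 and 12.64, by 1.97 ± 0.17 (adjusted p = 1.93e-10). Ccl17, a chemokine for CCR4-bearing T cells, rose by 1.65 ± 0.21 and the receptor chain gene Il4ra by 0.53 ± 0.11. Il4, Il5 and Il13 were not called, with differences of -0.13, -0.08 and 0.01, and the fall of Stat6, by 0.38, was not called without 0 ppm replicate 1, 2 or 3, without 20 ppm replicate 3 or 5, without the 3 arrays with hepatocyte signals, or with each array centred on its median.

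Goblet cell genes, which make and secrete mucus, differed in how even they were. Of 13 members 2 rose and none fell, with a median of 0.16. Slc26a4, the anion exchanger pendrin, had signals of 4.81, 4.36, 4.97, 4.72 and 5.08 at 0 ppm and 8.40, 8.16, 7.47, 7.89 and 8.01 at 20 ppm. It was at least 3.76-fold higher (3.20 ± 0.37 (adjusted p = 1.34e-07)) and every exposed lung was above every control. Agr2, a chaperone of mucin folding, reached 6.67, 8.37, 5.46, 7.92 and 4.76 at 20 ppm, against 3.77, 4.02, 5.09, 4.58 and 4.06 in clean air, and was at least 1.47-fold higher, with a fitted difference of 2.33 ± 0.58 (adjusted p = 0.00556) and 3 of the 5 exposed lungs above background. Without dim genes, 1 goblet cell gene was called. Clca1, a secreted goblet cell protease, was high on the same 2 arrays, replicates 2 and 4, at 4.91, 9.59, 4.43, 8.75 and 3.77, against 4.09, 4.28, 5.44, 5.78 and 3.92 in clean air. Its difference of 1.59 ± 0.83 did not pass (adjusted p = 0.246). On these 2 arrays the mean of the club cell list was also the highest of the 20 ppm group, at 11.31 and 11.06 against 10.56, 10.15 and 9.60, and the part of airway content in the spread of Agr2 and Clca1 was not tested.

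**Figure D3:**
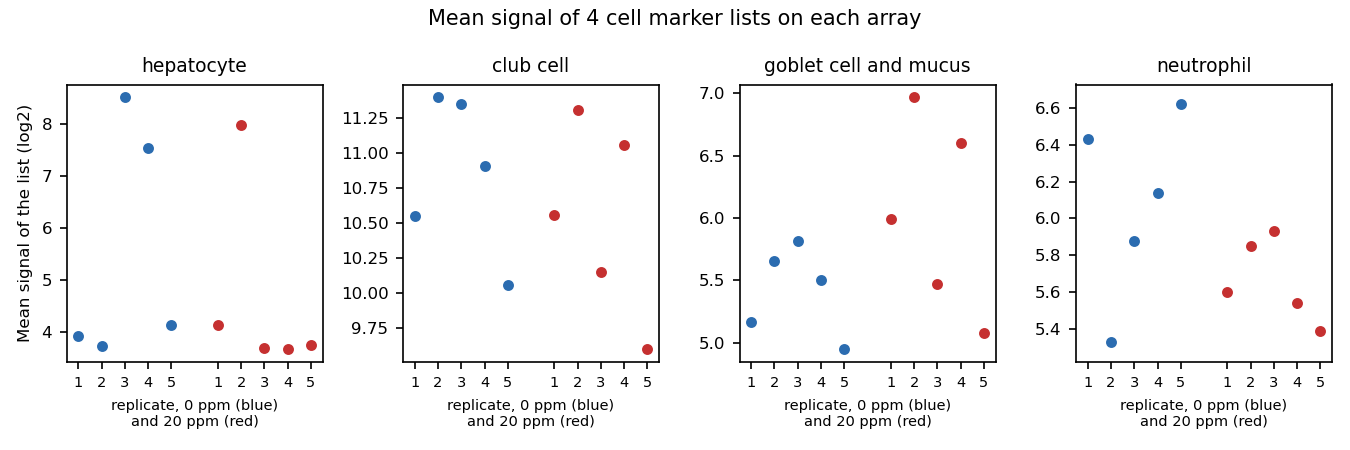
Mean log2 signal of the hepatocyte, club cell, goblet cell and neutrophil lists on each array, by replicate number, at 0 ppm (blue) and 20 ppm (red); the vertical axes differ. Hepatocyte signals are raised on 3 arrays, up to 8.52, and the 20 ppm replicates 2 and 4 are the highest of their group for the club and goblet cell lists.

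Genes of cell division rose in large numbers. Of 34 genes of DNA replication and nucleotide supply 27 rose and none fell, with a median of 0.81, and of 36 genes of mitosis and the spindle 22 rose and none fell, with a median of 0.70. Most of these transcripts were dim. Only 20 replication genes and 4 mitosis genes were above background on all 5 arrays of their brighter group. Of these, 17 and 4 were called higher. A rise at 20 ppm itself helps a gene to pass that filter, so these counts are no separate support. Mcm5, a subunit of the helicase that opens replication origins, had signals of 5.71, 5.21, 5.05, 5.28 and 5.52 at 0 ppm and 6.75, 6.57, 6.62, 6.54 and 7.12 at 20 ppm. It was at least 1.56-fold higher, with a difference of 1.37 ± 0.15 (adjusted p = 8.12e-08). Uhrf1, which carries DNA methylation to the new strand, rose from 5.75, 5.02, 5.01, 5.10 and 4.61 to 7.24, 7.00, 6.83, 7.20 and 7.43, by 2.04 ± 0.17 (adjusted p = 1.64e-10), at least 2.09-fold. Tk1 and Rrm2, enzymes of nucleotide supply, rose by 1.91 ± 0.20 and 1.81 ± 0.16. Cdk1, the kinase that starts mitosis, had signals of 5.97, 4.97, 5.20, 5.29 and 5.03 in clean air and 6.96, 7.20, 6.95, 7.44 and 7.47 at 20 ppm, a rise of 1.91 ± 0.22 (adjusted p = 1.63e-07) and at least 2.19-fold. Pbk, a mitotic kinase, rose by 1.96 ± 0.19 and Top2a, the topoisomerase of chromosome separation, by 1.81 ± 0.19. The lower bounds were 1.47-fold for Tk1, 1.1-fold for Rrm2 and 1.96-fold for Pbk, and none could be set for Top2a. Clean-air replicate 1 was the highest control for Mcm5, Uhrf1, Tk1, Rrm2 and Cdk1, and it lay below all exposed lungs for each of them.

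Promoters are printed for Mcm5 and Cdk1 because replication and mitosis genes are known to carry different control motifs, the E2F site in the former and the CCAAT box with the cell cycle homology region in the latter. Both genes were picked by the same rule as the interferon-stimulated genes, for holding the motifs, and genes with larger rises were passed over. Both are RefSeq windows of GRCm38.p6 of 300 bases. In Mcm5 (chr8:75109259-75109558, plus strand) capitals mark TTTNGCGC on either strand, a pair of overlapping matches at 153 and 149 bases before the gene start. In Cdk1 (chr10:69352863-69353162, minus strand) they mark CCAAT and TTTGAA on either strand, 5 matches in all.
Mcm5: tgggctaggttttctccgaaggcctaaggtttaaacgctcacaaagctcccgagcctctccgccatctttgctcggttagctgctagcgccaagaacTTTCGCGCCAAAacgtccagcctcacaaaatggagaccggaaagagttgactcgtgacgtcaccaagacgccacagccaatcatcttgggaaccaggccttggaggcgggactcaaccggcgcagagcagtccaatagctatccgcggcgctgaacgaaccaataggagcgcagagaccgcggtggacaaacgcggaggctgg
Cdk1: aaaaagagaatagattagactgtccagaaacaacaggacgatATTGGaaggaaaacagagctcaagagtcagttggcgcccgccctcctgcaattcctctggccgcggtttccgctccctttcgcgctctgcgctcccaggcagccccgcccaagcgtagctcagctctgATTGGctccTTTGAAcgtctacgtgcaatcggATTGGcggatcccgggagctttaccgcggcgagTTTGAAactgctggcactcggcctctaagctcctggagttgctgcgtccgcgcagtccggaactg
TTTNGCGC was found in 11 of the 30 replication genes with a promoter entry (36.7%), against 320 of 13605 tested genes (2.4%). CCAAT was found in 24 of 31 mitosis genes (77.4%), against 42.3% of tested genes, and TTTGAA also in 24 of 31, against 15.6%. Members that were not called are included in these counts.

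Nearly all enzymes of sterol synthesis rose. Of 16 measured enzymes 14 rose and none fell, with a median of 0.77. Cyp51, which demethylates lanosterol, had signals of 7.46, 7.85, 7.55, 7.41 and 6.75 at 0 ppm and 8.89, 8.89, 8.81, 8.88 and 8.72 at 20 ppm and rose 2.7-fold (1.43 ± 0.19 (adjusted p = 1.56e-06)). Idi1, which makes the active isoprene unit, rose from 7.39, 8.01, 7.81, 8.09 and 7.55 to 8.69, 9.05, 8.98, 9.06 and 8.92, by 1.17 ± 0.17 (adjusted p = 8.13e-06). Fdps and Lss, enzymes that build the chain and close the rings of the sterol, rose by 1.03 ± 0.14 and 1.17 ± 0.20. The sterol regulatory element, searched as TCACNCCAC in the same promoter windows, was found in 1 of 13 sterol synthesis genes with an entry (7.7%). Among tested genes it was found in 204 of 13605 (1.5%). Of 8 genes of sterol regulation 1 rose and 2 fell. The falls were those of Abcg1, a cholesterol exporter, by 0.92 and Mylip, which degrades the LDL receptor, by 0.68. The rise of Stard4, a sterol carrier, by 0.50 was not called without 0 ppm replicate 1, 2 or 3, without 20 ppm replicate 2, 3, 4 or 5, or without the 3 arrays with hepatocyte signals, and 2 members rose without the 120 ppm arrays, without dim genes, with array weights or with the replicate block. Of 11 genes of fatty acid synthesis and desaturation limma called none. With only the compared groups in the fit, or without the 120 ppm arrays, 1 was called higher and 1 lower, and with array weights 2 higher and 1 lower.

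Many enzymes that oxidise foreign compounds fell. Of 16 phase I enzymes none rose and 9 fell, with a median of -0.44. Cyp2f2, the principal styrene-oxidising P450 of mouse lung, had signals of 13.19, 13.31, 13.25, 13.23 and 13.21 at 0 ppm and 12.59, 12.78, 12.47, 12.64 and 12.43 at 20 ppm. The groups did not overlap and the difference was -0.66 ± 0.08 (adjusted p = 3.97e-07). These signals lie near the upper end of the scale, which reached 13.97, and a bright probe set may understate a change. Cyp2e1 had signals of 7.41, 7.30, 9.78, 8.01 and 6.12 in clean air and 7.68, 9.34, 6.36, 7.64 and 5.43 at 20 ppm, a difference of -0.43 ± 0.80 that did not pass (adjusted p = 0.827). Its 3 highest signals, 9.78, 9.34 and 8.01, were those of the 3 arrays with hepatocyte signals. Aox3, an aldehyde oxidase, fell from 9.76, 10.02, 9.83, 10.01 and 10.13 to 8.45, 8.69, 8.64, 8.65 and 8.80, a difference of -1.30 ± 0.16 (adjusted p = 5.98e-07). Aox1 and Aldh1a7 differed by -0.69 ± 0.12 and -0.68 ± 0.14. Cyp2a5, a coumarin hydroxylase, had a difference in the other direction, 1.43 ± 0.65, which did not pass (adjusted p = 0.161).

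Cyp1a1, the classical target of the aryl hydrocarbon receptor, fell at 20 ppm. Its signals were 7.95, 7.50, 7.42, 7.93 and 7.38 at 0 ppm and 4.85, 5.88, 5.70, 3.88 and 5.06 at 20 ppm. No exposed lung was above background, and the level in clean air was at least 2.91-fold higher (-2.56 ± 0.36 (adjusted p = 3.97e-06)). Nqo1, another gene of that list of 9, rose by 0.68 ± 0.17 and lost its call without the 3 arrays with hepatocyte signals. Among 7 esterases and paraoxonases 4 fell and none rose, with a median of -0.63, but 1 was called higher with only the compared groups, without the 120 ppm arrays, without dim genes, with array weights, with the replicate block and without 0 ppm replicate 1. Pon1, a lactonase carried on high-density lipoprotein, had signals of 10.81, 11.07, 10.80, 10.75 and 10.76 at 0 ppm and 8.95, 8.96, 8.50, 8.50 and 8.67 at 20 ppm. Its difference was -2.12 ± 0.17 (adjusted p = 4.06e-11), a 4.35-fold fall, and -2.22 without the 3 arrays with hepatocyte signals. Ces1d, a lung carboxylesterase, differed by -0.98 ± 0.16 (adjusted p = 2.99e-05).

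The enzymes that detoxify epoxides were divided. Of 20 epoxide hydrolases and glutathione transferases 2 rose and 8 fell, with a median of -0.39. Ephx1, the microsomal epoxide hydrolase, had signals of 10.81, 10.73, 10.60, 10.53 and 10.51 at 0 ppm and 9.87, 10.00, 9.71, 9.67 and 9.64 at 20 ppm and a difference of -0.86 ± 0.10 (adjusted p = 9.95e-08). Gstk1 differed by -0.86 ± 0.18. Gsta2 rose, from 6.50, 6.63, 6.28, 6.49 and 6.08 to 8.75, 8.17, 7.80, 8.37 and 8.34, by 1.89 ± 0.24 (adjusted p = 6.86e-07), but another probe set of this gene differed by -0.57, and close relatives of the family can share sequence. Targets of NRF2, the factor that answers oxidants and electrophiles, rose in 9 of 21 cases and fell in none, with a median of 0.23, and 5 rose without the 3 arrays with hepatocyte signals. Gclc, which limits the rate of glutathione synthesis, had signals of 10.13, 10.62, 10.72, 10.73 and 10.75 at 0 ppm and 11.36, 11.44, 11.49, 11.37 and 11.51 at 20 ppm and rose by 0.85 ± 0.17 (adjusted p = 5.15e-04). Srxn1 and Hmox1 rose by 0.68 ± 0.15 and 0.64 ± 0.17. Fth1 and Prdx1 had differences of 0.11 and 0.05 and were not called.

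Genes of epithelial repair rose. Of 13 genes of squamous repair and simple keratins 8 rose and none fell, with a median of 0.82. Prss22, a tryptase of airway epithelium, had signals of 3.80, 4.02, 4.09, 3.94 and 4.07 at 0 ppm and 7.37, 7.10, 7.25, 7.07 and 7.41 at 20 ppm. It was at least 2.24-fold higher (3.25 ± 0.23 (adjusted p = 3.09e-12)). Sprr1a, a component of the cornified envelope, rose from 5.59, 5.64, 4.72, 5.07 and 5.19 to 7.53, 7.72, 8.25, 8.24 and 8.67, by 2.84 ± 0.25 (adjusted p = 5.11e-10), at least 4.02-fold. Krt8, a keratin of simple epithelium, rose by 0.84 ± 0.10 and the tight junction gene Cldn4 by 1.16 ± 0.26, while the basal cell keratins Krt5 and Krt14 had differences of 0.27 and -0.02 and were not called. Hbegf, a ligand of the EGF receptor, rose from 8.84, 8.53, 8.50, 8.90 and 8.88 to 10.37, 10.52, 10.91, 10.40 and 10.99, by 1.91 ± 0.20 (adjusted p = 1.71e-08).

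Matrix genes of early injury also rose. Of 14 genes of the provisional matrix and injury response 7 rose and none fell, with a median of 0.32. Timp1, an inhibitor of matrix metalloproteinases, had signals of 8.95, 6.88, 7.45, 6.97 and 7.22 at 0 ppm and 10.74, 9.80, 10.25, 10.71 and 10.55 at 20 ppm. It rose 7.54-fold (2.91 ± 0.26 (adjusted p = 6.14e-10)), and clean-air replicate 1, which was also the highest control for Saa3, stood above the other controls. Tnc, tenascin C, was at least 1.85-fold higher (2.35 ± 0.23 (adjusted p = 2.60e-09)). Of 18 collagens and crosslinking enzymes 8 rose and none fell, with a median of 0.36 and 1 fall with only the compared groups or with array weights, among them Col1a1 by 0.72 ± 0.14 and Col4a1 by 0.41 ± 0.08. In the smooth muscle list of 5, Actg2 rose by 1.52 ± 0.31 and Acta2 by 0.80 ± 0.15, although another probe set of Acta2 differed by 0.03. These 2 calls became 4 with only the compared groups, without dim genes or with array weights.

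**Figure D4:**
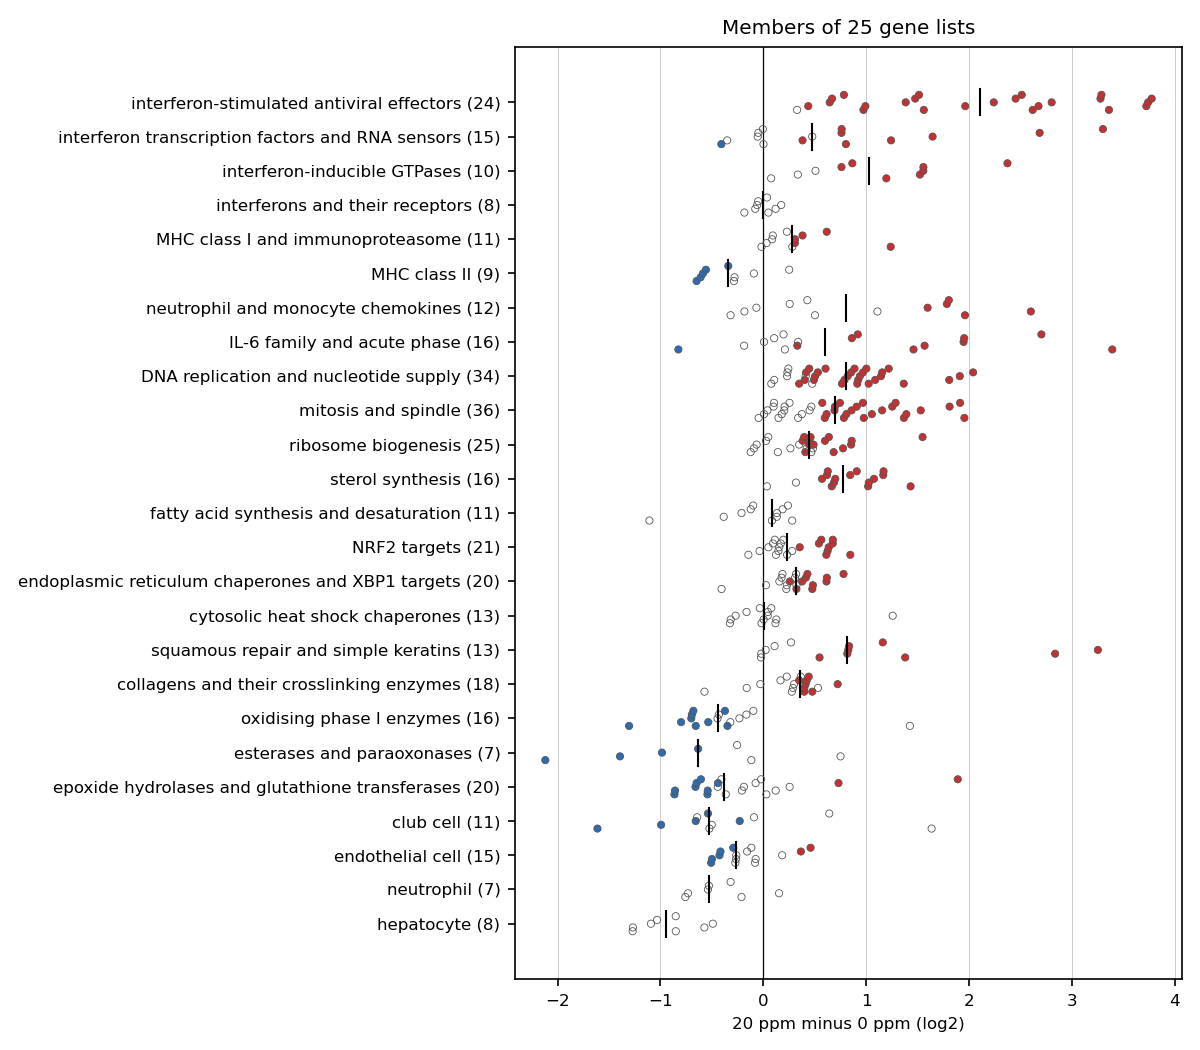
Log2 difference of 20 ppm minus 0 ppm for each measured member of 25 lists, with the number of members in brackets; filled points passed the test (red higher, blue lower), open points did not, and the black bar is the median of the list. The medians run from 2.10 for the antiviral effectors to -0.94 for the hepatocyte markers, none of which passed.

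Club cell markers fell in part. Of 11 markers none rose and 5 fell, with a median of -0.52. The differences ran from -1.61 to 1.64, so the largest in size was that of a marker in the other direction, which was not called. Scgb1a1, the defining secretoglobin of club cells, had signals of 13.84, 13.96, 13.88, 13.91 and 13.88 at 0 ppm and 13.79, 13.81, 13.84, 13.84 and 13.75 at 20 ppm, at the top of the scale, and a difference of -0.09 ± 0.05 that did not pass (adjusted p = 0.268). Scgb3a2, another secretoglobin, had signals of 13.18, 13.30, 13.29, 13.23 and 13.19 in clean air and 12.59, 13.05, 12.58, 12.89 and 12.39 at 20 ppm and differed by -0.54 ± 0.10 (adjusted p = 1.45e-04). Cldn10, a tight junction gene of these cells, differed by -0.99 ± 0.15 (adjusted p = 1.25e-05) and was even within each group. Lypd2 differed by -1.61 ± 0.35 (adjusted p = 0.00129), and here 20 ppm replicate 2, at 9.70, overlapped the lowest control. The list mean over arrays was 10.55, 11.40, 11.35, 10.91 and 10.06 in clean air and 10.56, 11.31, 10.15, 11.06 and 9.60 at 20 ppm, so the list means overlapped, while Cyp2f2, Scgb3a2 and Cldn10 did not.

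Other resident cells gave smaller changes. Of 15 endothelial markers 5 fell and 2 rose, with a median of -0.26. Kdr, the main receptor for vascular endothelial growth factor, had signals of 9.39, 9.24, 9.10, 9.53 and 9.44 at 0 ppm and 8.87, 8.70, 8.85, 8.96 and 8.79 at 20 ppm and differed by -0.51 ± 0.12 (adjusted p = 0.0041). Tie1 and Plvap differed by -0.50 ± 0.11 and -0.43 ± 0.09. The 2 endothelial rises, of Car4 and Sox17, depended on single arrays: 1 rise was called without 0 ppm replicate 2, 3, 4 or 5, without 20 ppm replicate 4 or without the 3 arrays with hepatocyte signals, and 0 without 20 ppm replicate 3. Of 9 alveolar type 2 markers 2 rose and 1 fell, and 2 fell with only the compared groups, without the 120 ppm arrays, with quantile normalisation, without dim genes or with array weights. Sftpc, the surfactant gene that defines the cell, had a difference of 0.01 and was not called. Sftpd rose by 0.38 ± 0.06 and Lpcat1, which makes surfactant lipid, differed by -0.38 ± 0.07. The other rise, of Cxcl15 by 0.22, was not called without 0 ppm replicate 1 or 2, without 20 ppm replicate 2, 3 or 5, or without the 3 arrays with hepatocyte signals. In alveolar macrophages, of 8 markers 2 rose and 3 fell: the collagen-degrading protease gene Ctsk rose by 0.95 ± 0.14, and Siglecf, a sialic acid receptor, and Pparg, a factor that maintains these cells, differed by -0.87 ± 0.14 and -0.73 ± 0.14, the latter at least 1.28-fold higher in clean air. The other 2 calls, of Marco and Krt79, were not made without the 3 arrays with hepatocyte signals.

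Several of the largest falls lay outside these groups. Mycl, a member of the Myc family, had signals of 6.81, 7.28, 7.23, 7.08 and 6.90 at 0 ppm and 4.88, 5.22, 4.68, 5.00 and 4.96 at 20 ppm and was at least 1.95-fold higher in clean air (-2.12 ± 0.23 (adjusted p = 3.17e-08)). Myc moved the other way, by 1.06 ± 0.14 (adjusted p = 1.17e-06). Igfbp3, which binds insulin-like growth factors, fell from 8.98, 8.78, 8.92, 8.30 and 8.35 to 7.11, 6.69, 6.33, 7.18 and 7.12, a difference of -1.78 ± 0.19 (adjusted p = 3.69e-08), while Igf1 rose by 1.08 ± 0.18, at least 1.58-fold. Traf1, an adaptor of TNF receptors, differed by -1.63 ± 0.23 (adjusted p = 5.68e-06), and the bicarbonate transporter gene Slc4a5 by -1.71 ± 0.21 (adjusted p = 5.88e-07). Gal, the neuropeptide galanin, was at least 1.87-fold higher in clean air (-1.46 ± 0.19 (adjusted p = 1.21e-06)). N4bp2l1 and Klhl24 differed by -1.45 ± 0.20 and -1.43 ± 0.22, without overlap between the groups. N4bp2l1 was at least 1.85-fold higher in clean air.

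Some of the genes that fell are abundant in liver or fat, and they are given with and without the 3 arrays with hepatocyte signals. Fabp1, a fatty acid binding protein, had signals of 7.46, 7.18, 8.63, 7.95 and 7.50 at 0 ppm and 5.73, 6.89, 5.78, 6.25 and 6.46 at 20 ppm, with the highest value of each group on an array with hepatocyte signals. The difference was -1.52 ± 0.28 (adjusted p = 2.37e-04) over all arrays and -1.33 without the 3, where it was still called. Acaa1b, a peroxisomal thiolase, differed by -1.78 ± 0.23 over all arrays and by -1.68 without the 3. It lay under the background limit on 3 of the 5 arrays at 20 ppm. Ces1f and Azgp1 differed by -1.39 ± 0.31 and -1.39 ± 0.26, and by -1.5 and -1.38 without the 3, with both still called. Ces1f lay under the background limit on 4 of the 5 arrays at 20 ppm. The chondroadherin gene Chad, a matrix gene of cartilage, overlapped between the groups, at 8.87, 9.56, 9.02, 8.89 and 8.50 and 7.09, 8.67, 6.69, 8.55 and 6.23, and its difference was -1.52 ± 0.37 (adjusted p = 0.0047). Its 2 highest exposed lungs were replicates 2 and 4, as for Clca1, and the part of airway cartilage in the sample was not tested.

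The 20 ppm arrays were also set against those of the neighbouring exposure levels, 10 and 40 ppm. Against 10 ppm, 11 genes were higher (0.0643% of those tested) and 8 lower (0.0468%), and 1070 had an unadjusted p under 0.05. This count is unstable: it was 37 without 10 ppm replicate 4, 19 without 20 ppm replicate 2 and from 5 to 9 when any 1 of the other 8 arrays was left out, and array weights gave 208. Between 40 and 20 ppm 0 genes were called by limma (0%), with 1995 at an unadjusted p under 0.05, 2 genes called without 40 ppm replicate 3 and 241 with array weights. The comparisons share the 20 ppm arrays, and their values stand side by side only.

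Prss22 was the clearest of the genes above 10 ppm, with a mean of 5.26 at 10 ppm, 7.24 at 20 ppm and 8.11 at 40 ppm. It lay under the background limit on all 5 arrays at 10 ppm and was at least 2.31-fold higher at 20 ppm. The fitted difference was 1.98 ± 0.23 (adjusted p = 1.14e-05). Tgm1, a transglutaminase of the cornified envelope, rose by 0.97 ± 0.15 (adjusted p = 0.00179), from a mean of 5.99 to 6.95, at least 1.76-fold. Cirbp, a cold-inducible RNA-binding protein, had signals of 5.96, 6.39, 6.98, 6.80 and 7.18 at 10 ppm and 7.90, 7.58, 7.56, 7.88 and 8.17 at 20 ppm and rose by 1.15 ± 0.22 (adjusted p = 0.02). Hsph1, a heat shock chaperone, ran the opposite way, with 11.67, 11.39, 10.58, 10.62 and 10.65 at 10 ppm and 9.91, 10.17, 9.93, 9.54 and 9.76 at 20 ppm, a difference of -1.12 ± 0.21 (adjusted p = 0.02). Neither Cirbp nor Hsph1 differed from clean air by the test, at 0.42 ± 0.22 and -0.32 ± 0.21 for 20 ppm against 0 ppm. Clca1 was high in every 10 ppm lung, at 10.17, 10.85, 11.22, 9.80 and 11.69, where its signal exceeded that of every 20 ppm lung, and 3 of the 5 arrays at 20 ppm were not above background (difference of 20 minus 10 ppm -4.46 ± 0.83 (adjusted p = 0.0173)). Ccl24, an eosinophil chemokine, had signals of 8.11, 7.21, 6.97, 6.50 and 7.11 at 10 ppm and 5.62, 3.85, 3.97, 5.48 and 6.26 at 20 ppm and a difference of -2.15 ± 0.31 (adjusted p = 6.82e-04), with 4 of the 5 arrays at 20 ppm not above background.

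Among the 30 genes named for the size of their change against clean air, Prss22 alone passed the test between 10 and 20 ppm, and none passed between 20 and 40 ppm. Cxcl10 had means of 9.02, 8.60 and 8.09 at 10, 20 and 40 ppm. Ifit1 had means of 10.38, 10.12 and 9.82, and Timp1 of 10.92, 10.41 and 10.25. The mean of Cyp1a1 was 5.82, 5.07 and 4.72, and that of Cyp2f2 12.70, 12.58 and 12.55. Other genes had larger fitted steps from 20 to 40 ppm: the difference was -1.13 ± 0.37 for Slc26a4, -1.06 ± 0.42 for Ifit2, -1.04 ± 0.42 for Saa3 and 1.19 ± 0.23 for Acaa1b, each over 2-fold and each towards the clean-air level, with adjusted p from 0.145 to 0.337. A step that does not pass does not show that the levels are equal: the standard error of each step was 0.39 for Cxcl10 and 0.36 for Cyp1a1.

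**Figure D5:**
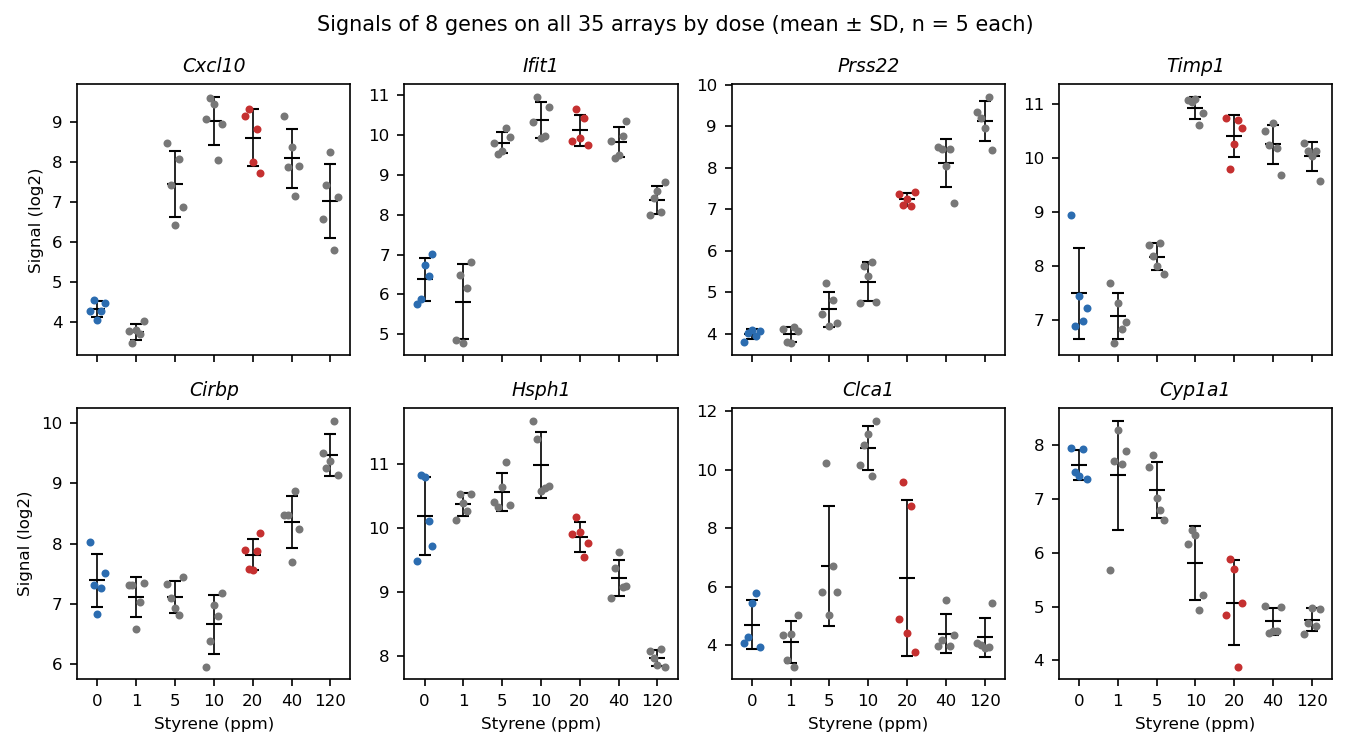
Log2 signals of 8 genes on all 35 arrays against the inhaled styrene concentration in ppm (equally spaced categories, not to scale), with mean and SD of 5 arrays per group; blue marks 0 ppm and red 20 ppm. Prss22 and Cirbp are higher at 20 than at 10 ppm and Hsph1, Clca1 lower, while Cxcl10, Ifit1, Timp1 and Cyp1a1 lie at 20 ppm between or near their 10 and 40 ppm values.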

How the data were processed

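Total RNA of whole lung was hybridised to Affymetrix HT MG-430 PM arrays, 1 per sample. The deposited table holds log2 signals that the authors made with RMA in Partek, per the submitters' processing notes, in which versions are not given. RMA subtracts background, forces a common distribution on the arrays and summarises each probe set, so that total brightness cannot differ between groups and differences of very dim or very bright probe sets are compressed. No scanner files were analysed here, so scan batches were not examined.

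Of 45141 probe sets, 104 are controls, 28898 carry 1 gene symbol in the platform annotation, 551 carry several and 15588 are not listed. These 28898 gave 17097 genes, and each gene was read from its brightest probe set, by the average of all arrays. limma 3.58.1 in R 4.3.3 fitted 1 mean per concentration over all 35 arrays and gave the contrasts of 20 with 0, 10 and 40 ppm, adjusted over all genes by Benjamini and Hochberg. The fit was tested on simulated data, but the outcome is not reported here and gives no error rate for these data. The limma p-values set a difference against the spread between samples of the same concentration, pooled over all concentrations. Whether that is a spread between single mice is not known, as the labels do not exclude pooled extracts. The genes named are the 15 with the largest rise and the 15 with the largest fall that were above background, up to 5 called genes per list, and Cyp2f2, Cyp2e1 and Scgb1a1. Genes outside this rule that are given by value, such as Clca1, Cyp2a5, Ifnb1, S100a8, S100a9, Hspa1b and Alb, were picked after their values were seen, as was the alternative without 3 arrays. The comparison, the lists and the rule were chosen with earlier results of these data known. Lists are described by counts and medians, with no test of their own, and 729 of 808 list entries were measured. Promoters were matched to RefSeq by symbol, and the interferon motif was shortened by 1 base after the shares of the longer form had been seen. Alternatives covered the arrays in the fit, centring, quantile normalisation, dim genes, array weights, the variance model, the replicate block, probe sets, a fold limit and each array left out. The replicate numbers were not treated as pairs in the main fit. Residuals of same-numbered arrays at 0 and 20 ppm correlated between -0.24 and 0.51. For replicates 1 and 5, at 0.51 and 0.36, the same-numbered array was the best match, and for the other replicates it was not. Whether same-numbered samples were handled together was not tested.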

Additional observations from a re-analysis of the deposited data

Results flagged for a closer look

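Among the named genes, 1 array stood apart from the other 4 of its group in 24 of 368 groups of 5 (6.52%), where chance gives about 1 in 20. The test divides the gap to the nearest array by the range of the group, with a limit of 0.71, and each value is given beside the median of the other 4 arrays. On clean-air replicate 1 it found Saa3 at 8.79 (above a median of 5.49), Timp1 at 8.95 (above a median of 7.09), Psmb10 at 10.15 (above a median of 9.74), Ccl17 at 6.69 (below a median of 7.63), Il4ra at 7.32 (above a median of 6.99), Aox1 at 8.24 (below a median of 8.77), Aldh1a7 at 10.69 (below a median of 11.13), Gclc at 10.13 (below a median of 10.73) and Krt79 at 7.70 (below a median of 8.13). On clean-air replicate 2 it found Pon1 at 11.07 (above a median of 10.78) and Col1a1 at 6.87 (below a median of 7.64). On clean-air replicate 3 it found Ccl7 at 3.52 (above a median of 3.35), Dnajb11 at 9.14 (above a median of 8.88) and Ereg at 3.32 (above a median of 2.93). On clean-air replicate 4 it found Srxn1 at 6.37 (below a median of 6.61), Bbc3 at 5.97 (below a median of 6.22) and Mt1 at 10.96 (below a median of 11.14). On clean-air replicate 5 it found Nupr1 at 10.68 (below a median of 10.84). On 20 ppm replicate 1 it found Nfkbie at 7.05 (above a median of 6.67) and Junb at 8.14 (above a median of 7.43). On 20 ppm replicate 2 it found Fmo5 at 6.47 (above a median of 6.01) and Sox17 at 8.76 (below a median of 9.29). On 20 ppm replicate 4 it found Sdf2l1 at 8.68 (below a median of 9.07) and Atf3 at 6.75 (below a median of 7.87). Of these genes Psmb10, Krt79, Bbc3 and Nupr1 were not called without the 3 arrays with hepatocyte signals. Clean-air replicate 1 thus accounts for 9 of these 24, with Saa3, Timp1, Psmb10 and Il4ra above the other controls and Ccl17, Aox1, Aldh1a7, Gclc and Krt79 below them. For 7 of these 9 genes replicate 1 lay on the side towards which the gene moved at 20 ppm, the exceptions being Ccl17 and Gclc. The cause was not tested.

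Of the 15588 probe sets that the annotation does not list with a gene, 837 were called between 20 and 0 ppm (5.37%), 323 higher and 514 lower. They are outside the counts of genes.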

How the results depend on the processing

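Against clean air, the main count of 2255 genes lay between 2000 and 3272 with only the compared groups in the fit, without 120 ppm, with centred or re-normalised arrays, without dim genes, with a trended variance, with the replicate block (2535, of which 2234 were also called without it) or with all probe sets averaged. Array weights gave 4061, a fold of at least 1.5 gave 870, and leaving out the 3 arrays with hepatocyte signals gave 1288. Against 10 ppm the count of 19 became 72 without 120 ppm, 11 without dim genes and 208 with array weights, and 24 with the block. For 40 against 20 ppm, 0 became 4 with only the compared groups, 2 without 120 ppm and 241 with array weights, and stayed 0 with the block. With 1 array left out the counts ran from 1792 to 2115, from 5 to 37 and from 0 to 2. The control summaries then ran from -0.29 to -0.21 for the poly-A mean, -0.090 to -0.031 for hybridisation, 0.014 to 0.038 and -0.066 to 0.12 for the mean and highest nonspecific control, -0.012 to 0.0023, -0.0026 to 0.022 and -0.00076 to 0.013 for the lower quartile, median and upper quartile, -0.076 to -0.042 for Gapdh and -0.043 to -0.011 for Actb (3' minus 5'). The causes were not tested.

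Of 184 named genes 146 kept their side of the threshold in every alternative and none reversed. Calls of 24 genes were lost when 1 array was left out and of 33 without the 3 arrays. Scgb1a1 passed with a trended, robust variance. With 5 arrays a group a difference near its own standard error is not resolved, and genes under the background limit give no usable fold.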

Other observations

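Lists of the making, folding and removal of proteins gave different counts. Of 25 genes of ribosome biogenesis 14 rose and none fell, with a median of 0.45, and 9 rose without the 3 arrays with hepatocyte signals. Bysl, which matures the small ribosomal subunit, had signals of 7.31, 6.87, 6.88, 6.52 and 6.74 at 0 ppm and 7.87, 7.65, 7.75, 7.60 and 7.72 at 20 ppm and rose by 0.85 ± 0.15 (adjusted p = 7.29e-05). Of 20 chaperones of the endoplasmic reticulum and XBP1 targets 10 rose and none fell, with a median of 0.32, and 6 rose without 0 ppm replicate 1, 20 ppm replicate 2 or 20 ppm replicate 3, and 1 fell with the replicate block. Edem1, which sorts misfolded proteins for degradation, rose from 7.67, 7.71, 7.93, 7.59 and 7.61 to 8.32, 8.29, 8.30, 8.27 and 8.43, by 0.62 ± 0.11 (adjusted p = 1.92e-04). Of 30 proteasome subunits 8 rose and none fell, with a median of 0.19, and 5 rose without 0 ppm replicate 5, 4 without the 3 arrays with hepatocyte signals and 16 with array weights. None of 13 cytosolic heat shock chaperones was called by limma, and Hspa1b, with the largest difference, differed by 1.26 ± 0.52 (adjusted p = 0.113). Array weights called 1 of these chaperones higher and 2 lower, 1 was called higher with the replicate block or without 0 ppm replicate 2, and 1 lower without 0 ppm replicate 5.

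Of 17 genes of the integrated stress response and serine synthesis 3 rose and 1 fell, with a median of 0.21. The count higher was 5 without the 120 ppm arrays or with array weights, and the fall, of Nupr1, was not called without the 3 arrays with hepatocyte signals. Atf3, a stress-induced transcription factor, had signals of 6.00, 5.96, 5.66, 5.52 and 5.72 at 0 ppm and 7.86, 7.88, 7.98, 6.75 and 7.68 at 20 ppm and rose by 1.86 ± 0.30 (adjusted p = 2.85e-05). Psat1, an enzyme of serine synthesis, rose from 5.75, 6.22, 6.03, 5.87 and 5.62 to 7.69, 7.58, 7.51, 7.87 and 7.84, by 1.80 ± 0.20 (adjusted p = 5.30e-08). Of 22 immediate early transcription factors 6 rose and 1 fell, with a median of 0.24. Egr1 rose by 1.29 ± 0.19 and Fos by 0.74 ± 0.16, and Btg2 differed by -0.58 ± 0.12. The count lower was 3 with only the compared groups and 2 in several other alternatives. Of 15 genes of NF-kB feedback and its targets 5 rose and 1 fell, the fall being that of Traf1, with a median of 0.31, and 3 rose without 0 ppm replicate 4 or 5, without 20 ppm replicate 1 or without the 3 arrays with hepatocyte signals. Bcl3, a nuclear partner of NF-kB, rose by 1.21 ± 0.18. Of 17 genes of the circadian clock 1 rose, a share near the 6.45% over all genes, and 2 fell. The rise was that of Bhlhe40, a clock repressor, by 0.79 ± 0.14. Tef and Per3 fell, with differences of -0.91 ± 0.15 and -1.21 ± 0.32. The count lower was 4 with array weights or the replicate block, and the block also called 2 higher. The call of Per3 was not made without the 3 arrays with hepatocyte signals, which left 1 fall.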
